A study of Mus musculus with 18 samples.

Results

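Antimicrobial proteins of myeloid cells were followed through 10 genes chosen by name, *Lcn2*, *Slpi*, *S100a8*, *S100a9*, *Camp*, *Ltf*, *Ngp*, *Lyz2*, *Wfdc17* and *Wfdc21*, of the 55029 and 54232 genes listed in the count files of 2 library sets. RNA was sequenced from eosinophils of C57BL/6 NJ.1638 *Il5*Tg mice, which carry an interleukin-5 transgene and have many eosinophils. The age of the mice and the promoter of the transgene are not given in the sources used here. The cells were washed from the peritoneal cavity and enriched by removing cells bound by beads against Thy1.2 and B220, which take away T and B cells. The study checked purity by flow cytometry and describes the remaining cells as mainly lymphocytes. One set of 12 libraries held unstimulated cells (replicates a to c) and cells stimulated for 18 h with heat-inactivated *E. coli*, with IFN-γ at 50 ng/ml, or with both. The other set of 6 libraries held unstimulated cells (replicates d to f) and cells stimulated for 18 h with IL-4 at 100 ng/ml. Each group had 3 libraries. The totals of counts on genes were 1523808 to 2734041 in the first set and 3625036 to 6482289 in the second. Levels are given as CPM (counts scaled to a common library total within a set), so they are compared within a set and not between sets.

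Antimicrobial proteins of myeloid cells work by several routes. Some withhold iron or other metals from bacteria, some break the bacterial wall or membrane, and some are protease inhibitors that limit damage by the host's own enzymes. Neutrophils store many of them in granules made during maturation in the bone marrow, while macrophages and epithelial cells make several on demand after contact with bacterial products or cytokines. Eosinophils are best known for other granule proteins, among them major basic protein and eosinophil peroxidase.

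The 10 genes differed widely in their counts. *Lcn2*, *Slpi*, *Wfdc17*, *Lyz2* and *S100a8* passed the filter on low counts in both sets, and *S100a9* passed it in the IL-4 set. *Camp*, *Ltf*, *Ngp* and *Wfdc21* did not pass in either set. The tests therefore covered 5 of the 10 genes with *E. coli* and IFN-γ and 6 of the 10 with IL-4. A gene was called where edgeR (quasi-likelihood test, Benjamini-Hochberg adjusted over all genes tested in the set) gave an adjusted p under 0.05. In these bulk libraries, fewer cells of a type and less RNA per cell cannot be told apart.

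With *E. coli*, 4 of the 5 genes tested were higher and 1 was lower, where 13.5% and 16.7% of the 9883 genes tested were called higher and lower. *S100a8*, *Lcn2*, *Wfdc17* and *Slpi* rose and *Lyz2* fell. The median log2 fold change was 1.05 over the 5 genes and -0.02 over all genes tested. With IFN-γ, *S100a8* and *Wfdc17* rose and *Lcn2* fell, so that 2 were higher and 1 lower, against 15.6% and 16% of all genes. The medians were 0.30 and -0.03. With both stimuli, *S100a8*, *Wfdc17*, *Slpi* and *Lcn2* were higher and 0 were lower, against 23.9% and 25.2% of all genes, with medians of 0.94 and -0.04. These 3 comparisons share the unstimulated libraries a to c. With the unstimulated libraries of both sets taken as 1 group, *Slpi* (-0.036) and *Wfdc17* (-0.26) changed direction with *E. coli*, and so did *Wfdc17* with IFN-γ (-0.075), while *Slpi* (0.081) and *Wfdc17* (0.55) were no longer called with both stimuli. Levels are not comparable between the sets.

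With IL-4, of the 6 genes tested, 0 were higher and 4 were lower, *Lcn2*, *Slpi*, *Wfdc17* and *Lyz2*, where 5.97% and 4.35% of the 10556 genes tested were called higher and lower. The median log2 fold change was -0.75 over the 6 genes and 0.00 over all genes. With the unstimulated libraries of both sets as 1 group, *Lcn2* alone was called (-2.20, adjusted p = 0.000118), and *Slpi* (-0.87, adjusted p = 0.111), *Wfdc17* (-0.11, adjusted p = 0.91) and *Lyz2* (-0.10, adjusted p = 0.867) were not.

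*Lcn2* (ENSMUSG00000026822, chr2:32384633-32388252 of GRCm38, minus strand) encodes lipocalin-2, which binds bacterial siderophores and so keeps iron from bacteria. Its level was 104, 180.0 and 188 CPM in unstimulated libraries a, b and c and 374, 378 and 717 CPM after *E. coli*. With IFN-γ it was 72.2, 63.6 and 54.3 CPM, and with both stimuli it was 238, 285 and 350.2 CPM. The 4 groups did not overlap, and ran from IFN-γ at the bottom through unstimulated cells and both stimuli to *E. coli* at the top. Group means were 157 ± 46.4, 489.7 ± 197, 63.3 ± 8.97 and 291 ± 56.3 CPM (SD, n = 3) for unstimulated cells, *E. coli*, IFN-γ and both.

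*Lcn2* rose with *E. coli* by a log2 fold change of 1.64 (standard error 0.24, edgeR adjusted p = 3.08e-05) and fell with IFN-γ by 1.30 (standard error 0.26, edgeR adjusted p = 0.000897). With both stimuli it was 0.90 above unstimulated cells (standard error 0.24, edgeR adjusted p = 0.00429). In the IL-4 set its level was 154, 144 and 185 CPM without stimulus and 25.9, 31.6 and 32.7 CPM with IL-4. Every IL-4 library was far below every unstimulated one, and the log2 fold change was -2.42 (standard error 0.16, edgeR adjusted p = 2.63e-05), the largest fall among the members with IL-4.

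*Slpi* (ENSMUSG00000017002, chr2:164354070-164389095, minus strand) encodes secretory leukocyte protease inhibitor, which blocks neutrophil elastase and also acts on bacteria. One of its exons overlaps the microRNA gene *Mir7678* on the same strand. Its level was 514, 549 and 559 CPM in the unstimulated replicates a to c, and 833, 857 and 1271 CPM with *E. coli*. With IFN-γ it was 645, 670.0 and 676 CPM, and with both stimuli 832, 1031 and 1258 CPM. The *E. coli* and combined groups covered nearly the same range and lay above the IFN-γ libraries, which in turn lay above the unstimulated ones.

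The log2 fold change of *Slpi* was 0.87 with *E. coli* (standard error 0.16, edgeR adjusted p = 0.000336) and 0.94 with both stimuli (standard error 0.16, edgeR adjusted p = 7.01e-05). With IFN-γ it was 0.30 (standard error 0.16, edgeR adjusted p = 0.166) and was not called, although the libraries did not overlap, as was the case for 45.7% of all genes tested. In the first set every gene's count stayed under 4096, the number of molecules that 6-base identifiers can tell apart, and *Slpi* reached 62.8% of that limit in 1 library. With counts corrected for the limit, the log2 fold change with *E. coli* was 1.22 (edgeR adjusted p = 6.35e-05). With IL-4, *Slpi* went from 1032, 1090.2 and 1281 CPM to 393, 395 and 462 CPM, with no overlap.

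*Wfdc17* (ENSMUSG00000069792, chr11:83703991-83706268, plus strand) encodes a small secreted protein with a whey acidic protein domain, the same kind of domain as in *Slpi*. Its level was 203, 160.3 and 177 CPM in the unstimulated replicates a to c and 339, 296 and 487 CPM with *E. coli*. With IFN-γ it was 418, 368 and 471 CPM, and with both stimuli 392, 586 and 925 CPM. All stimulated libraries of this set were above the unstimulated ones, and the 3 stimulated groups overlapped each other. The log2 fold changes were 1.05 with *E. coli* (standard error 0.23, edgeR adjusted p = 0.00189), 1.21 with IFN-γ (standard error 0.23, edgeR adjusted p = 0.000547) and 1.81 with both (standard error 0.23, edgeR adjusted p = 3.53e-06).

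IL-4 lowered *Wfdc17*, from 393, 669 and 569.7 CPM to 282, 289.9 and 367 CPM. The groups did not overlap, although the lowest unstimulated library was close to the highest IL-4 library. The log2 fold change was -0.80 (standard error 0.19, edgeR adjusted p = 0.0237). The call was lost without unstimulated replicate f (adjusted p = 0.0709), without IL-4 replicate 1 (adjusted p = 0.126) and without IL-4 replicate 2 (adjusted p = 0.112).

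**Figure D1:**
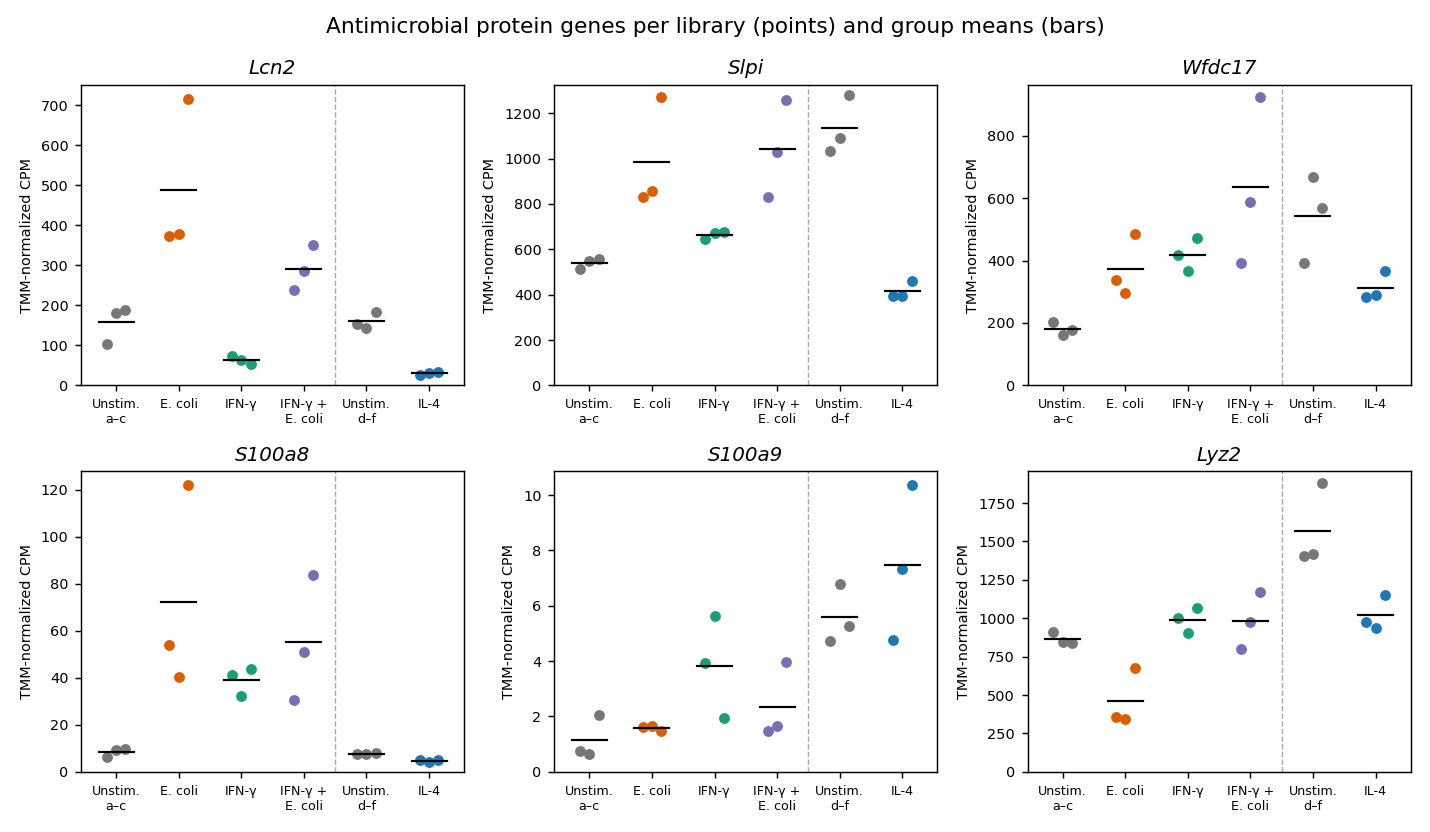
Level of 6 genes in each of the 18 libraries, in CPM scaled within each set (points, 1 per library), with the mean of each group of 3 as a bar and a dashed line between the 2 sets. *Lcn2* is highest with *E. coli*, at 374 to 717 CPM, and lowest within its set with IFN-γ, at 54.3 to 72.2 CPM.

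*S100a8* (ENSMUSG00000056054, chr3:90668978-90670035, plus strand) and *S100a9* (ENSMUSG00000056071, chr3:90692632-90695721, minus strand) lie 22.6 kb apart and encode the subunits of calprotectin, which binds zinc and manganese and so starves bacteria of metals. *S100a8* was at 6.33, 9.51 and 9.91 CPM in the unstimulated replicates a to c and at 53.8, 40.5 and 122 CPM with *E. coli*. It was at 41.4, 32.3 and 43.8 CPM with IFN-γ and at 30.7, 51.0 and 83.8 CPM with both stimuli. Every stimulated library of this set was well above every unstimulated one, and the 3 stimulated groups overlapped.

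The log2 fold changes of *S100a8* were 3.06 with *E. coli* (standard error 0.42, edgeR adjusted p = 1.79e-05), 2.20 with IFN-γ (standard error 0.45, edgeR adjusted p = 0.00106) and 2.71 with both (standard error 0.44, edgeR adjusted p = 5.16e-05). These were the largest rises among the members with each stimulus. With IL-4 it went from 7.50, 7.79 and 7.93 CPM to 5.14, 3.99 and 5.18 CPM. The libraries did not overlap, as for 31.3% of all genes tested with IL-4, but the log2 fold change of -0.71 (standard error 0.28, edgeR adjusted p = 0.145) was not called.

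Transcripts of the partner subunit were scarce. *S100a9* had 1 to 11 counts in the 12 libraries of the first set, where it was not tested, and its highest levels there were 5.64 CPM in an IFN-γ library and 3.96 CPM in a library given both stimuli together. In the IL-4 set it was at 4.72, 6.79 and 5.29 CPM without stimulus and 4.76, 7.31 and 10.4 CPM with IL-4. The groups overlapped, and the log2 fold change of 0.38 (standard error 0.34, edgeR adjusted p = 0.529) was not called.

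*Lyz2* (ENSMUSG00000069516, chr10:117277331-117282321, minus strand) encodes the lysozyme of macrophages and other myeloid cells, which cuts the peptidoglycan of bacterial walls. Its transcript shares 95.8% of 1264 aligned bases with that of *Lyz1*, so the split of counts between them is uncertain. *Lyz2* was at 908, 845 and 837 CPM in the unstimulated replicates a to c and at 360.2, 344 and 676 CPM with *E. coli*. It was at 1001, 907 and 1065 CPM with IFN-γ and at 798, 974 and 1171 CPM with both stimuli. The *E. coli* libraries lay below all others of the set, and the unstimulated range was overlapped by both groups that received IFN-γ.

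With *E. coli* the log2 fold change of *Lyz2* was -0.91 (standard error 0.20, edgeR adjusted p = 0.00154), the only fall among the members with this stimulus. It was 0.20 with IFN-γ (standard error 0.19, edgeR adjusted p = 0.472) and 0.18 with both (standard error 0.19, edgeR adjusted p = 0.452), and neither was called. With IL-4 *Lyz2* went from 1403, 1419 and 1880.0 CPM to 974, 939.6 and 1154 CPM, without overlap. The log2 fold change was -0.62 (standard error 0.14, edgeR adjusted p = 0.0214), and the call was lost without unstimulated replicate f (adjusted p = 0.0616), IL-4 replicate 1 (adjusted p = 0.126) or IL-4 replicate 2 (adjusted p = 0.116).

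Transcripts of *Camp*, *Ltf*, *Ngp* and *Wfdc21* were at the edge of detection. *Camp*, which encodes the cathelicidin precursor, had at most 5 counts in any of the 18 libraries. *Ltf*, which encodes the iron-binding lactoferrin, and *Ngp*, which encodes neutrophilic granule protein, had at most 6 counts each. *Wfdc21*, a neighbour of *Wfdc17* on chromosome 11 at a distance of 40671 bases, had at most 7. A level of 3 counts corresponded to 1.10 to 1.97 CPM of unadjusted library totals in the first set. For IL-4 and its controls it was 0.463 to 0.828 CPM on the same scale. Differences below this were not detectable at this depth. Such floors cover counting error only.

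**Figure D2:**
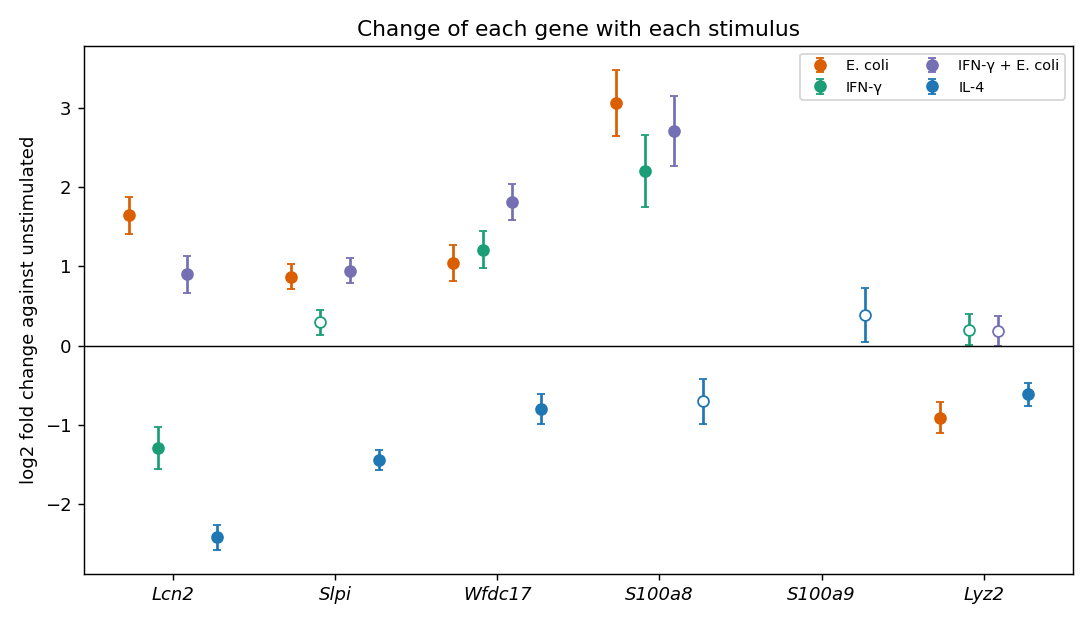
Log2 fold change against the unstimulated libraries of the same set for each tested member and stimulus, with bars of 1 approximate standard error on each side, filled points for called changes and open points for the others. *S100a8* has the largest rises, 3.06 with *E. coli* and 2.71 with both stimuli, and *Lcn2* the largest fall, -2.42 with IL-4.

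The combined stimulus was compared with each single one, which gives the effect of adding IFN-γ to *E. coli* and of adding *E. coli* to IFN-γ. Whether IFN-γ changed the response to *E. coli* is asked only by the interaction term below. Against *E. coli* alone, 3 of the 5 genes were called, where 32.8% of all genes were. *Lcn2* was lower with both (log2 difference -0.74, standard error 0.23, edgeR adjusted p = 0.0177), while *Lyz2* (1.10, standard error 0.20, edgeR adjusted p = 0.000271) and *Wfdc17* (0.77, standard error 0.22, edgeR adjusted p = 0.0129) were higher. *Slpi* (0.08, edgeR adjusted p = 0.745) and *S100a8* (-0.35, edgeR adjusted p = 0.455) were not called. Of these, the *Lyz2* libraries were separate, at 344 to 676 CPM with *E. coli* and 798 to 1171 CPM with both, and the *Wfdc17* libraries overlapped. In the same comparison, 6 of 14 macrophage and monocyte markers were higher and 1 lower. All 5 B cell markers and 2 of 2 mast cell markers tested were higher. These mast cell markers, *Cma1* and *Tpsb2*, had at most 8 and 13 counts in unstimulated libraries a to c. With both stimuli they had 18 to 60 and 26 to 53 counts, and they passed the filter through groups given IFN-γ. Their rise is not read as a result. Of 7 neutrophil markers 2 were higher and 2 lower, and of 8 eosinophil markers 0 were higher and 3 lower. The part of other cells in these calls was not tested.

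The *Lcn2* and *Wfdc17* calls of this comparison each rested on single libraries. *Lcn2* was not called without *E. coli* replicate 3 (-0.37, adjusted p = 0.148), combined replicate 1 (adjusted p = 0.0788) or combined replicate 2 (adjusted p = 0.0578). *Wfdc17* was not called without *E. coli* replicate 1 (adjusted p = 0.054), *E. coli* replicate 2 (adjusted p = 0.0726) or combined replicate 3 (adjusted p = 0.112). With DESeq2's Wald test the adjusted p was 0.0839 for *Lcn2* and 0.0569 for *Wfdc17*.

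Against IFN-γ alone, 2 of the 5 genes were called, where 12.2% of all genes were. *Lcn2* was higher with both stimuli by 2.20 (standard error 0.26, edgeR adjusted p = 1.19e-05) and *Slpi* by 0.65 (standard error 0.16, edgeR adjusted p = 0.01). *Wfdc17* (0.60, edgeR adjusted p = 0.0914), *S100a8* (0.51, edgeR adjusted p = 0.425) and *Lyz2* (-0.01, edgeR adjusted p = 0.977) were not called. The *Slpi* call was lost without IFN-γ replicate 1 (adjusted p = 0.0506) or combined replicate 3 (adjusted p = 0.0534), and *Wfdc17* was called without combined replicate 1 (adjusted p = 0.00929). Against IFN-γ, 0 of 14 macrophage and monocyte markers were called, and 3 of 5 B cell and 1 of 2 mast cell markers were higher. The mast cell call is again not read as a result, because of the filter. Of 7 neutrophil markers 2 were higher and 3 lower, and of 8 eosinophil markers 2 were higher and 3 lower.

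The interaction term asks whether the change with both stimuli differs from the sum of the separate changes on the log2 scale. It was called for 1 of the 5 genes, *S100a8*, and for 4.62% of all genes. For *S100a8* the interaction was -2.55 (standard error 0.57, edgeR adjusted p = 0.0126), as its change of 2.71 with both stimuli was well short of the sum of 3.06 and 2.20. Without unstimulated replicate a it was -2.35 and was not called (adjusted p = 0.0585). The interaction of *Lyz2* was 0.90 (edgeR adjusted p = 0.0726), and without *E. coli* replicate 3 it was 1.27 and called (adjusted p = 0.000498). Those of *Lcn2* (0.55, edgeR adjusted p = 0.467), *Slpi* (-0.22, edgeR adjusted p = 0.701) and *Wfdc17* (-0.44, edgeR adjusted p = 0.543) were not called.

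The response to IL-4 was tested against the other responses by the difference of the 2 changes, each taken from its own unstimulated libraries. It differed from the response to both stimuli for 5 of 6 genes, where 39.2% of 10671 genes were called. The differences on the log2 scale were -3.47 for *S100a8*, -3.38 for *Lcn2*, -2.67 for *Wfdc17* and -2.45 for *Slpi*, with edgeR adjusted p-values of 5.91e-05, 6.34e-08, 1.79e-06 and 1.4e-08. For *Lyz2* the difference was -0.86 (edgeR adjusted p = 0.0158), and with counts corrected for the limit of the identifiers it was -0.70 and was not called (adjusted p = 0.0748). It was also not called without combined replicate 3 (-0.69, adjusted p = 0.062). *S100a9* was not called (-0.62, edgeR adjusted p = 0.537).

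From the response to *E. coli* alone, the IL-4 response differed for 4 of 6 genes, where 28.1% of all genes were called. The log2 differences were -4.08 for *Lcn2*, -3.79 for *S100a8*, -2.33 for *Slpi* and -1.86 for *Wfdc17*, with edgeR adjusted p-values of 1.07e-08, 3.21e-05, 6.28e-08 and 0.00022. *Lyz2*, lower with either stimulus, was not called (0.28, edgeR adjusted p = 0.492), and without *E. coli* replicate 3 its difference was 0.65 and called (adjusted p = 0.0252). The stimulus and the library set cannot be told apart here except through the unstimulated libraries of each set.

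*E. coli* replicate 3 was the highest library of its group for *Lcn2*, *Slpi*, *S100a8*, *Lyz2* and *Wfdc17*. Without it, all 5 genes were still called with *E. coli*, at log2 fold changes of 1.27 for *Lcn2*, 0.65 for *Slpi*, 2.48 for *S100a8*, -1.29 for *Lyz2* and 0.82 for *Wfdc17*. Its summed level of macrophage and monocyte markers, without *Ly6c2*, was 1263 CPM, against 845.6 and 774.0 CPM in the other *E. coli* libraries, and its sum of mast cell markers was 34.56 CPM against 9.79 and 6.687 CPM. B cell markers summed to 75.5 CPM in this library and to 39.2 and 44.5 CPM in the others. Its sum of neutrophil markers, 819.1 CPM, was the lowest of the 3. Combined replicate 3 was likewise the highest library of its group for these 5 genes. Its sum of macrophage and monocyte markers without *Ly6c2* was 1910 CPM, against 1448 and 1650 CPM in the other combined libraries. Its sums of mast cell, B cell and neutrophil markers lay between those of the other combined libraries. The part of other cells in the member levels of either library was not tested.

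Since several members are best known from neutrophils, a list of 15 neutrophil markers was read beside them. In the first set 7 of the 15 were above 3 counts in any library, and *Elane* and *Mpo*, which encode enzymes of primary granules, were at or under 3 counts throughout, together with *Prtn3*, *Ctsg*, *Fcnb*, *Stfa2l1*, *Mrgpra2b* and *Itgb2l*. *Retnlg* was the most abundant. The summed level was 1120, 1276 and 1186 CPM in unstimulated libraries, 861.1, 843.9 and 819.1 CPM with *E. coli*, 1286, 1307 and 1384 CPM with IFN-γ, and 955.3, 975.8 and 964.1 CPM with both. The summed level was lower with *E. coli* and with both stimuli, and higher with IFN-γ, than in unstimulated cells. Without *Retnlg* the means were 609.8, 554 and 711 CPM for unstimulated cells, *E. coli* and IFN-γ, and 653 CPM with both, now above the unstimulated mean. Members moved both with and against the full sum. With *E. coli*, *Lyz2* fell and *Lcn2*, *Slpi*, *S100a8* and *Wfdc17* rose, and with IFN-γ, *S100a8* and *Wfdc17* rose and *Lcn2* fell. With both stimuli, *S100a8*, *Wfdc17*, *Slpi* and *Lcn2* rose.

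Single neutrophil markers moved in both directions. With *E. coli*, 2 of the 7 tested were higher and 2 lower, with *Cxcr2* at 1.73, *Mmp8* at 1.58, *Retnlg* at -1.02 and *Padi4* at -0.61 on the log2 scale. With IFN-γ 3 were higher and 2 lower, *Ly6g* at 2.27, *Mmp8* at 1.94, *Mmp9* at 0.78, *Cxcr2* at -1.76 and *Padi4* at -0.74. With both, 2 were higher and 3 lower, with *Mmp8* at 4.36, *Ly6g* at 1.63, *Padi4* at -1.50, *Retnlg* at -0.90 and *Cxcr2* at -0.73. *Ly6g* had 2 to 16 counts in unstimulated libraries a to c and 8 to 9 with *E. coli*. It had 36 to 39 counts with IFN-γ and 19 to 24 with both, and passed the filter through these groups. *Ly6g* is counted among the markers tested in this set, but its rises are not read as results. In the IL-4 set 12 of the 15 were above 3 counts. With IL-4 their sum averaged 993 ± 28.7 CPM against 2176 ± 179.8 CPM in unstimulated cells (SD, n = 3), and without *Retnlg* it was 239 against 321 CPM. With IL-4 1 was higher, *Cxcr2* at 3.09, and 3 were lower, *Mmp9* at -2.37, *Mmp8* at -1.59 and *Retnlg* at -1.30. All 4 members called with IL-4, *Lcn2*, *Slpi*, *Wfdc17* and *Lyz2*, were lower, as was the sum of neutrophil markers. The part of neutrophils in the levels of the antimicrobial genes was not tested.

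Other cell types were read in the same way. All 14 macrophage and monocyte markers were detected in both sets, with *Ly6c2* the most abundant, and their sum without it was 1340, 961, 1742 and 1669 CPM in unstimulated, *E. coli*, IFN-γ and combined libraries. With *E. coli*, 0 were called higher and 5 lower, and with IFN-γ 5 were higher and 2 lower. With both stimuli 4 were higher and 3 lower. With *Ly6c2* the sums were 3260, 2475, 4027 and 3979 CPM, but the counts of *Ly6c2* in this set were 3359 to 4083, close to the limit of 4096, so its level and these sums also follow library size. In the IL-4 set the full sum was 25840 CPM without and 25750 CPM with IL-4, and without *Ly6c2* it was 2819 and 2173 CPM, with 0 markers higher and 5 lower. *Lyz2*, a gene of macrophages, fell with *E. coli* and with IL-4, and the part of macrophages in its level was not tested. Mast cell markers summed to 8.45, 17.0, 19.2 and 57.5 CPM in the first set and went from 7.32 to 15.2 CPM with IL-4. Of the 2 mast cell markers tested, 0 were called with *E. coli*, 1 was higher with IFN-γ, 2 with both and 0 with IL-4. In the first set these markers passed the filter through groups given IFN-γ, so their calls there are not read as results. B cell markers summed to 174, 53.1, 72.4 and 123 CPM, and to 30.5 and 63.4 CPM without and with IL-4. Of 5 B cell markers tested, 5 were lower with *E. coli*, 4 were lower with IFN-γ and 0 were called with both. With IL-4, 3 of 4 B cell markers were higher and 0 lower. Of 6 T cell markers, *Cd3d* alone was above 3 counts, in sums of 3.98 to 6.20 CPM in the first set and of 4.58 and 3.19 CPM without and with IL-4.

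The label of the cells was read from eosinophil markers. In unstimulated libraries a to c, *Siglecf*, *Ccr3* and *Il5ra* were at 1020, 1431 and 179 CPM. Of the 12 markers listed, 8 were tested in this set, and 2 were higher and 2 lower with *E. coli*, 1 higher and 4 lower with IFN-γ, and 2 higher and 4 lower with both. *Siglecf* was lower with *E. coli* (-0.68 on the log2 scale), IFN-γ (-0.70) and both (-1.55), and so was *Il5ra* (-1.35, -0.37 and -1.28), while *Ccr3* was not called with any of them. The counts of *Ccr3* in this set were 2258 to 3576, against the limit of 4096. A change in its level could be compressed, so it is not read as stable. *Gata1* was higher with all 3 (0.56, 0.38 and 0.74), and *Ear6* was higher with *E. coli* (1.29) and both (0.52) and lower with IFN-γ (-0.93). *Prg2* was lower with IFN-γ (-0.81) and both (-1.13), and *Alox15* was lower with both (-0.60). *Alox15* had 3197 to 3732 counts in unstimulated libraries a to c, so its changes in this set may also be compressed. With IL-4 4 of 12 were higher, *Ear6* (1.34), *Prg2* (0.83), *Il5ra* (0.60) and *Siglecf* (0.39), and 2 were lower, *Ccr3* (-0.72) and *Cd24a* (-0.39). The part of these shifts in the levels of the members was not tested. Granule protein genes differed in level. *Epx*, which encodes eosinophil peroxidase, had 0 to 4 counts in the first set and reached 5 to 19 with the libraries of the second, *Prg2*, which encodes major basic protein, was at 29.5 CPM in the unstimulated replicates a to c, and *Prg3* was at or under 3 counts in the first set. *Ear6*, which encodes an eosinophil ribonuclease, was at 36.7 CPM in the unstimulated cells of the first set and 87.5 CPM with *E. coli*, and at 138 CPM without and 348 CPM with IL-4.

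Beyond the 10 genes, 18 other antimicrobial genes were listed, of which 11 were tested. The shares of all genes called higher and lower, against which the counts of this and the following lists stand, were 13.5% and 16.7% with *E. coli*, 15.6% and 16% with IFN-γ, 23.9% and 25.2% with both, and 5.97% and 4.35% with IL-4. With *E. coli*, 2 of the 11 were higher and 3 lower, near the shares over all genes, and 6 were not called. *Nos2*, which makes nitric oxide, rose by 1.65 and *Slc11a1*, a metal transporter of the phagosome, by 1.47 on the log2 scale, while *Rnase4* (-2.21), the peptidoglycan-binding *Pglyrp1* (-1.99) and *Retnlg* (-1.02) were lower. With IFN-γ 6 were higher and 3 lower, with *Nos2* at 3.76, *Slc11a1* at 1.38, haptoglobin, *Hp*, at -3.03, *Pglyrp1* at -2.29 and *Rnase4* at -2.0. With both, 6 were higher and 4 lower, with *Nos2* at 4.73, *Slc11a1* at 2.19, *Rnase4* at -3.40, *Pglyrp1* at -3.36 and *Hp* at -1.37. *Adm*, at most 2 counts in unstimulated libraries a to c, was at 7.57 CPM with IFN-γ and 15.9 CPM with both. With at most 4 counts with *E. coli*, it passed the filter through the groups where it was high. It is counted among the genes tested, but its rise is not read as a result. With IL-4 2 were higher, *Chil3* (0.85) and *Pglyrp1* (0.70), and 3 lower, *Hp* (-2.14), *Slc11a1* (-1.43) and *Retnlg* (-1.30), with 6 not called.

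Protease inhibitors related to *Slpi* and *Wfdc17* by domain or function formed a list of 15, of which 5 were tested in the first set and 4 with IL-4. With *E. coli*, *Stfa3* was higher (2.64), and *Serpinb1a*, an inhibitor of neutrophil serine proteases, was lower (-1.68). With IFN-γ 3 were higher and 0 lower, with *Serpinb1a* at 2.54, *Serpinb6a* at 0.63 and *Cstb* at 0.59. With both stimuli 0 were lower, and *Serpinb1a* (1.71) and *Cstb* (1.16) were among those higher. *Gm5483*, also called higher with *E. coli* and with both, had at most 2 counts in unstimulated libraries a to c. It was at 18.2 CPM with *E. coli* and 4.37 CPM with both, from 37 to 54 and 2 to 11 counts. With at most 3 counts with IFN-γ, it passed the filter through the *E. coli* libraries. Its calls are therefore not read as results. With IL-4, *Cstb* (-0.62) and *Serpinb6a* (-0.54) were lower and 0 were higher. Of the granule enzymes of neutrophils, *Elane*, *Prtn3*, *Ctsg* and *Mpo* had at most 3 counts in the first set, and 0 of these 4 genes passed the filter in either set.

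Of the 13 other S100 genes listed, 5 were tested in the first set and 7 with IL-4. With *E. coli*, 0 were higher and *S100a10* was lower (-1.10). With IFN-γ, *S100a11* (0.38) was higher and *S100a6* (-1.47) lower. *S100a11* had 3096 to 3200 counts with IFN-γ, against the identifier limit of 4096, so its change may be compressed. With both stimuli 0 were higher and 4 lower, including *S100a6* (-1.61), *S100a13* (-0.87) and *S100a10* (-0.68). With IL-4, *S100a1* was lower (-1.05) and 0 were higher.

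A list of 7 receptors of these proteins and of bacterial products was read next. *Slc22a17*, which encodes a receptor for lipocalin-2, was lower with *E. coli* (-1.33), IFN-γ (-1.30) and both (-1.94). *Cd14*, a co-receptor for bacterial lipopolysaccharide, was higher with each of these stimuli, at 0.77, 0.78 and 1.71 on the log2 scale. With *E. coli*, *Tlr4* (0.75) and *Fpr1* (0.81) were also higher and *Lrp1* was lower (-0.81), giving 3 higher and 2 lower of 6 tested and 1 not called. With IFN-γ 2 of 6 were higher, 1 lower and 3 not called, with *Fpr2* at 0.80, and with both 3 were higher, 1 lower and 2 not called, with *Fpr2* at 1.56 and *Fpr1* at 0.79. With IL-4 0 of 7 were higher, 5 were not called and 2 were lower, the formyl peptide receptors *Fpr1* (-1.76) and *Fpr2* (-1.43).

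All 9 listed transcription factors and co-factors were tested. Among them are C/EBP factors, which act in myeloid cells, and *Nfkbiz*, a co-factor that acts with NF-κB. With *E. coli* 3 were higher and 2 lower, *Nfkbiz* (2.35), *Cebpb* (0.51), *Stat3* (0.41), *Cebpa* (-1.29) and *Stat6* (-0.32). With IFN-γ 4 were higher and 4 lower, including *Stat3* (1.27), *Nfkbiz* (0.85), *Cebpb* (0.85), *Cebpa* (-1.74), *Cebpd* (-0.68) and *Cebpe* (-0.63). With both, 5 were higher and 3 lower, including *Nfkbiz* (3.07), *Stat3* (1.46), *Cebpb* (1.08), *Cebpa* (-1.45), *Cebpd* (-1.41) and *Cebpe* (-0.88). With IL-4 1 was higher, *Nfkb1* (0.64), and 2 lower, *Cebpa* (-1.43) and *Cebpb* (-0.54). In the first set the counts of *Cebpb* reached 3640 of the 4096 that the identifiers can tell apart, so its changes there may be compressed. *Cebpa* had 13 to 19 counts in unstimulated libraries a to c. It had 4 to 10 counts with *E. coli*, 2 to 6 with IFN-γ and 4 with both. *Cebpa* passed the filter of this set through the unstimulated libraries, where it was high. It is counted among the genes tested, but its falls in the first set are not read as results.

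Genes with the most similar profiles over the 12 libraries of the first set were listed by Pearson's r of log2 CPM, as a description. They share libraries and depth with the members. For *Lcn2* they were *Ctla2a* (0.976), *U90926* (0.957) and *Pim2* (0.954), and for *Slpi* *Nupr1* (0.98), *Socs3* (0.978) and *Timp1* (0.977). For *S100a8* they were *Lsm12* (0.951), *Stip1* (0.95) and *Kdelr2* (0.945). For *Lyz2* they were *Ube2l6* (0.979), *Npc2* (0.97) and *Ctss* (0.969), and for *Wfdc17* *Efhd2* (0.968), *Arhgap23* (0.965) and *Slc7a2* (0.96).

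Promoters of 9 of the 10 members were matched in RefSeq (GRCm38.p6), and the 250 bases before each start were searched on both strands. The C/EBP motif TTNNGNAA was in 8 of 9, and in 36.8% of 32851 promoters. The STAT6 motif was in 1, *Lcn2*, and in 5.85% of all promoters. The STAT motif TTCNNNGAA was in 0 of 9 (7.02% of all), and the NF-κB motif in 0 of 9 (7.25%). No match overlapped another motif's match. A match is a description of the letters and not a site. The stretches outside exons are shown for *Slpi* (chr2:164356508-164356757, minus strand, within the span of the gene), *S100a8* (chr3:90668821-90668977, plus strand) and *Wfdc17* (chr11:83703806-83703990, plus strand), the 3 members that rose with both stimuli and have such a stretch, 5′ to 3′ with C/EBP matches on either strand in capitals.
Slpi: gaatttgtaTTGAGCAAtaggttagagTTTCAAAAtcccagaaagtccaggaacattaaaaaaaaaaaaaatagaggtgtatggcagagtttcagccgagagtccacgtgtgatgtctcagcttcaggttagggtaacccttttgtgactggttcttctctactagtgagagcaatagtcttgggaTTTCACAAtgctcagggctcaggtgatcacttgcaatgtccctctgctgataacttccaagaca
S100a8: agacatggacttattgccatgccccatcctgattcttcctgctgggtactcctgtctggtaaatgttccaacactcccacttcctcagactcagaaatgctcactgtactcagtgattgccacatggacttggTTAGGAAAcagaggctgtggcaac
Wfdc17: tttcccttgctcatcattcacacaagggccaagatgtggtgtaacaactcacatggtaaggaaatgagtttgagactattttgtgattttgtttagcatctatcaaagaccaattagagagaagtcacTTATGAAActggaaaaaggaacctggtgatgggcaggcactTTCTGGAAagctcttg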

How the data were processed

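The deposited values are counts per gene that the authors made from reads. Their methods name CEL-Seq2, TopHat2 2.1.0 with HTSeq 0.6.1, fastp 0.20.1 and STAR 2.7.2a, without saying which made which set. In the first set, 18.9% to 37.6% of counts were on no gene and 1.84% to 2.27% were ambiguous, and both were left out. Gene names matched 98.3% and 99.7% of identifiers. Each set was filtered by expression, scaled by TMM and fitted with edgeR 4.0.16 in R 4.3.3, with the test checked on simulated data. Standard errors are approximate. DESeq2 1.42.0, other filters and scaling, a correction for the identifier limit and leaving out each library were alternatives. The members and lists were chosen with earlier results of these data known. Of each gene list the called genes with the largest changes were named, at most 3 in each direction, and of the marker lists those of neutrophils and some of eosinophils, chosen after their values were seen. The labels do not say that replicates came from separate mice or cultures, so p-values measure the spread between these samples.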

Additional observations from a re-analysis of the deposited data

Results flagged for a closer look

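The change of *S100a8* with *E. coli* differed between cells with and without IFN-γ, with an interaction of -2.55 on the log2 scale. It was called in 16 of 17 alternatives, DESeq2's Wald test among them, at -2.99 to -1.97.

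Over the 6 unstimulated libraries, *Ngp* in replicate d lay apart from the others, with a gap to its neighbour of 0.664 of the whole range, above Dixon's critical value. It rests on 5 counts or fewer per library, near the floor, and the libraries come from both sets, whose levels are not comparable. The test therefore cannot show that replicate d differs, and no conclusion is drawn from it. Chance gives such a gap in about 1 in 20 groups, and 9 members were examined.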

How the results depend on the processing

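Of 684 log2 values of members under the alternatives, 637 kept their direction and side of the threshold, 24 lost the call, 6 gained it and 17 changed direction. Of 45 mean levels, 42 moved by less than 1 SD with raw totals. Without the filter, 0 untested members were called. The identifier correction was not run for IL-4 against unstimulated cells.

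With all 6 unstimulated libraries as 1 group, which joins the sets, 3 members were called with *E. coli*, 2 with both stimuli and 1 with IL-4. There *Slpi* was at -0.036 and *Wfdc17* at -0.26 with *E. coli*, *Slpi* at -0.59, *Lyz2* at -0.54 and *Wfdc17* at -0.075 with IFN-γ, and *Lyz2* at -0.53 with both. The cause was not tested. Requiring a 2-fold change gave 3, 2 and 2 calls with *E. coli*, both and IL-4. DESeq2's Wald test gave 1 call for both against *E. coli*. Without the filter the interaction gave 2 calls. Corrected for the identifier limit, *Slpi* was at -0.13 for both against *E. coli*.

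Leaving out 1 library at a time gave 2 to 4 calls with IL-4, 1 to 3 for both against IFN-γ and 0 to 2 for the interaction. Log2 differences ranged from -0.085 to 0.30 (*Slpi*) and -0.76 to 0.24 (*S100a8*) for both against *E. coli*, from -0.17 to 0.11 (*Lyz2*) for both against IFN-γ and from -0.78 to 0.25 (*S100a9*) for IL-4 less *E. coli*.

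With the replicate number as a replicate block, 3 members were called for both against *E. coli* and 3 for both against IFN-γ, where *Wfdc17* was gained (0.53, adjusted p = 0.0207). Correlations between same-numbered samples were -0.0163 to 0.173 for *E. coli* and IFN-γ, 0.0706 to 0.163 for *E. coli* and both, and -0.045 to 0.331 for IFN-γ and both. As they were not all over 0.1, the number was not taken to pair samples.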
